A study of Homo sapiens with 12 samples.

Results

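miR-486 is a microRNA whose hairpin precursor gives a strand from its 5′ arm, hsa-miR-486-5p, and a strand from its 3′ arm, hsa-miR-486-3p, written miR-486-5p and miR-486-3p below. These 2 of the 2588 mature miRNAs in the count table were followed in A549 cells over a course of TGF-β treatment. Both were selected on their lower levels after 96 h in earlier results of the same counts, so their levels and changes are given here as a description, without a test. Where a mature miRNA was listed on several entries of the table, the entry with the highest total was used. The 2 strands took up 4 entries, in 2 adjacent pairs. Both strands had reads in all 6 libraries and were among the 491 miRNAs that passed the filter on low counts.

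The A549 line comes from an adenocarcinoma of the human lung. TGF-β drives its cells from an epithelial toward a mesenchymal state, the epithelial-to-mesenchymal transition (EMT). TGF-β1 was given for 0, 24, or 96 h before the small RNA was sequenced, and each time had 2 libraries. The labels hold 2 samples for each library, which share its number and differ in a number that reads as a date. These were taken as 2 runs of the same library, which the labels do not state. The cells of all time points were kept in serum-free medium before TGF-β1 was added. No untreated culture of 24 or 96 h was among the samples, so the effect of TGF-β and that of time in culture cannot be told apart. The labels do not say whether the libraries of a time point came from separate cultures, and the spread between them may be technical.

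A miRNA strand loaded into an Argonaute protein guides it to mRNAs that pair with the seed of that strand, and the other strand of the duplex is mostly discarded. miR-486-5p is the strand that is usually retained. It is known from red blood cells and from skeletal and heart muscle, is abundant in plasma, and targets the transcription factor FOXO1. MIR486 lies within ANK1, the gene of an ankyrin of the red cell and muscle cell membrane skeleton.

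In the GENCODE annotation of GRCh37, MIR486 spans 68 bases of chromosome 8, from 41517959 to 41518026, on the plus strand. ANK1 lies around it on the minus strand, from 41510739 to 41754259. Of the 16 annotated ANK1 transcripts, 12 span MIR486, and in all 12 it falls in an intron and overlaps no exon. MIR486 is thus antisense to its host in this annotation. RefSeq lists 2 overlapping genes here, MIR486-1 and MIR486-2, and the strand of the second is not given in the sources used here. Which pair of entries stands for which gene was not identified.

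The total counts on mature miRNAs ranged from 2335185 to 5971197, so that 1 read was worth between 0.428 and 0.167 CPM (reads scaled to a fixed library total). A count of 0 allows up to 3 counts, or 1.28 CPM in the smallest library and 0.502 CPM in the largest. Levels below are CPM normalized with TMM, which scales each library by its typical miRNA, unless total counts are named. The factors of TMM ran from 0.738 to 1.36. Counting intervals are 95% Wilson intervals. They leave out every error but that of counting, because the reads carry no molecular identifiers and PCR copies are counted as if they were separate molecules.

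miR-486-5p, the guide strand, was lower at each later time point. It had 353 and 445 reads at 0 h, 221 and 233 reads after 24 h, and 125 and 128 reads after 96 h. In normalized terms its level was 129 and 133 CPM at 0 h, 82.2 and 71.3 CPM after 24 h, and 28.4 and 34.7 CPM after 96 h. Both libraries at 0 h lay above both after 24 h, and these lay above both after 96 h. For either strand, the place of 96 h in such an order follows in part from the selection. The share of all tested miRNAs with libraries in such an order is not given here. The level of miR-486-5p was 131 ± 2.45 CPM at 0 h (SD, n = 2 libraries), 76.8 ± 7.76 CPM after 24 h, and 31.5 ± 4.49 CPM after 96 h. Even the closest libraries were 1.57-fold apart between 0 and 24 h and 2.05-fold apart between 24 and 96 h.

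miR-486-3p, the less abundant strand, followed the same order of time points. It had 66 and 84 reads at 0 h, 43 and 46 reads after 24 h, and 18 and 14 reads after 96 h. Its normalized level was 24.2 and 25.1 CPM at 0 h, 16.0 and 14.1 CPM after 24 h, and 4.08 and 3.80 CPM after 96 h. The time points again did not overlap, and the closest libraries of 24 and 96 h were 3.45-fold apart. The level of miR-486-3p was 24.6 ± 0.627 CPM at 0 h (SD, n = 2 libraries), 15.0 ± 1.37 CPM after 24 h, and 3.94 ± 0.203 CPM after 96 h. With 18 and 14 reads after 96 h, the counting interval of a library was wider than the distance between the libraries. It ran from 1.91 to 4.77 CPM of the total count in one 96 h library and from 1.79 to 5.04 CPM in the other.

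**Figure D1:**
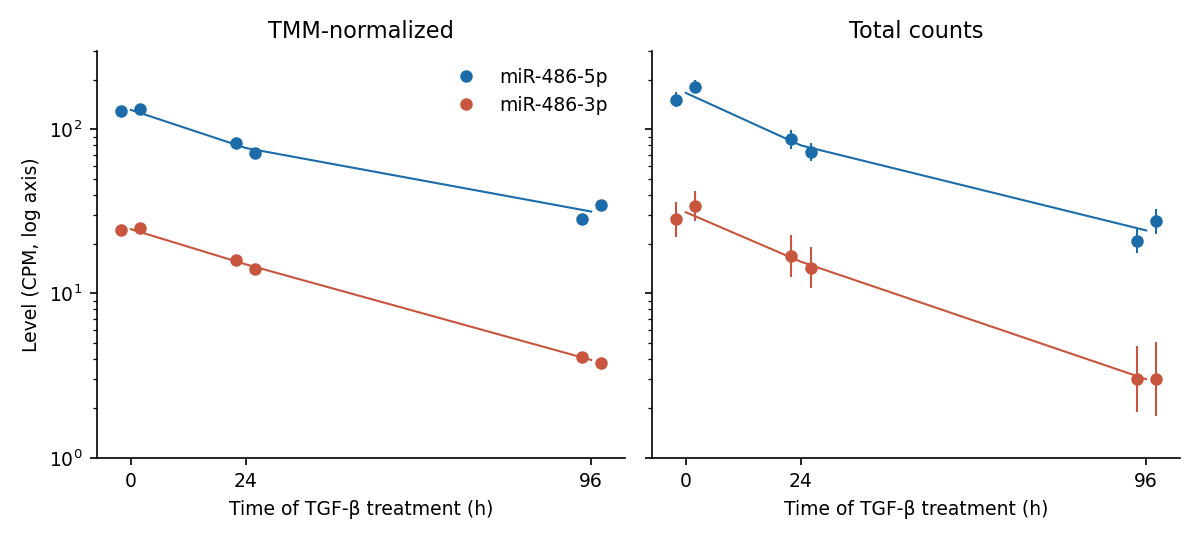
Level of miR-486-5p and miR-486-3p in each library, in CPM on a log axis, against the time of TGF-β treatment in h (points of a time point are set slightly apart). The left panel is normalized with TMM and the right panel by total counts with 95% Wilson intervals, and the lines join the means of 2 libraries. In both panels the libraries of the 3 time points do not overlap for either strand, with miR-486-5p between 129 and 133 CPM at 0 h and between 28.4 and 34.7 CPM after 96 h in the left one.

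The log2-fold change of miR-486-5p was −0.77 after 24 h (SE 0.18) and −2.06 after 96 h (SE 0.19) against 0 h, and −1.28 between 24 and 96 h (SE 0.19). The level after 96 h was thus 4.16-fold lower, with 24.0% of the 0 h level left. For miR-486-3p the log2-fold change was −0.71 after 24 h (SE 0.25), −2.63 after 96 h (SE 0.29), and −1.92 between 24 and 96 h (SE 0.30). Its level after 96 h was 6.19-fold lower, with 16.2% left. The median log2-fold change over all 491 tested miRNAs was −0.00 after 24 h, −0.10 after 96 h, and −0.05 between 24 and 96 h. In bulk RNA such as this, fewer cells that hold a miRNA and less of it per cell cannot be told apart.

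Counted from the lowest of all 491 log2-fold changes after 96 h, miR-486-3p held place 8 and miR-486-5p place 23. After 24 h the same strands held places 66 and 56. The rank of miR-486-5p by read count slid from 129 in both 0 h libraries to 157 and 163 after 24 h and to 238 and 221 after 96 h. miR-486-3p went from ranks 243 and 241 at 0 h to 277 and 282 after 24 h and to 399 and 410 after 96 h. Ranks by read count do not depend on the normalization, and between 883 and 991 miRNAs had a read in a library.

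The intervals differ in length, so the change was also taken per 24 h. On this basis, the log2-fold change of miR-486-5p was −0.77 (SE 0.18) in the first interval and −0.43 (SE 0.063) between 24 and 96 h. For miR-486-3p it was −0.71 (SE 0.25) and −0.64 (SE 0.10). The later interval thus had the smaller value for both strands, by more for miR-486-5p, and the difference between the intervals was not tested. Under total counts the values were −1.06 and −0.57 for miR-486-5p and −1.01 and −0.78 for miR-486-3p.

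With TMM, miR-21-5p had a mean level of 611358 CPM and a log2-fold change of 0.97 after 96 h. Scaling by total counts shifted the whole distribution downward, and the part of miR-21-5p in this was not tested. The median of all tested miRNAs then stood at −0.30 after 24 h, −0.83 after 96 h, and −0.49 between 24 and 96 h. On that scale, miR-486-5p changed by −2.78 and miR-486-3p by −3.36 after 96 h. Relative to the median, the change after 96 h was −1.96 for miR-486-5p and −2.53 for miR-486-3p with TMM. This distance is nearly the same under any scaling by construction, since a scaling shifts all miRNAs alike. The direction was the same with the size factors of DESeq2, where the changes after 96 h were −1.98 and −2.56.

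**Figure D2:**
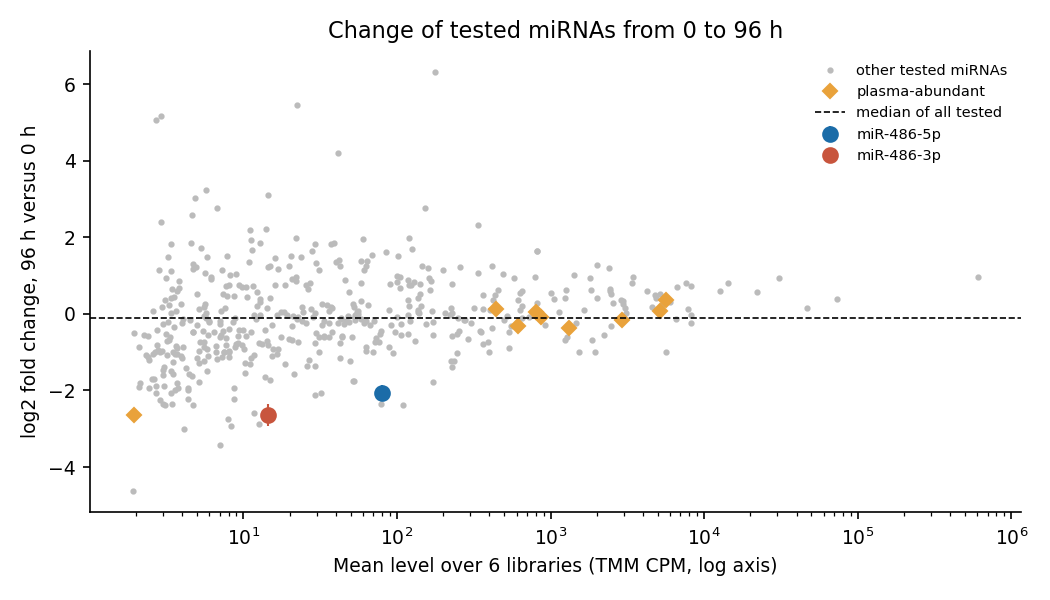
log2-fold change from 0 to 96 h (vertical axis) of the 491 tested miRNAs against the mean level over 6 libraries in TMM-normalized CPM (log axis), with the SE for both strands of miR-486 and the median of −0.10 dashed. miR-486-3p at −2.63 and miR-486-5p at −2.06 sit near the lower edge of the cloud, below all but 1 of the plasma-abundant miRNAs, a list described in the text.

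Each library was sequenced in 2 runs, and in 5 of the 6 libraries the reads of the runs could be separated with the authors' normalized values. miR-486-5p had 253 and 100 reads in the deeper and the shallower run of the first 0 h library and 265 and 180 in those of the second. The runs gave 151 and 70 reads in the first 24 h library, 133 and 100 in the second, and 94 and 31 in the first 96 h library. Scaled to the total of the run over all entries, this was 137 to 174 CPM at 0 h, 65.0 to 80.8 CPM after 24 h, and 17.9 to 20.2 CPM after 96 h. The runs of the 3 time points did not overlap, and the order of the time points was the same in the deeper and in the shallower runs.

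miR-486-3p ranged from 22.7 to 34.3 CPM in the 4 runs at 0 h and from 13.0 to 16.6 CPM in those after 24 h. In the 2 runs of the first 96 h library it was at 3.22 and 1.73 CPM, which rested on 15 and 3 reads. These ranges did not overlap either. The runs of a library were taken as repeats of 1 sample, which show the reading of that library and not the spread between cultures. The numbers in the labels that read as dates were taken as run dates. Those of the second runs differ, with both 24 h libraries on one date, both 96 h libraries on another, and the 0 h libraries split between them. Which of the separated runs has which date was not identified, so the part of the run date was not tested.

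**Figure D3:**
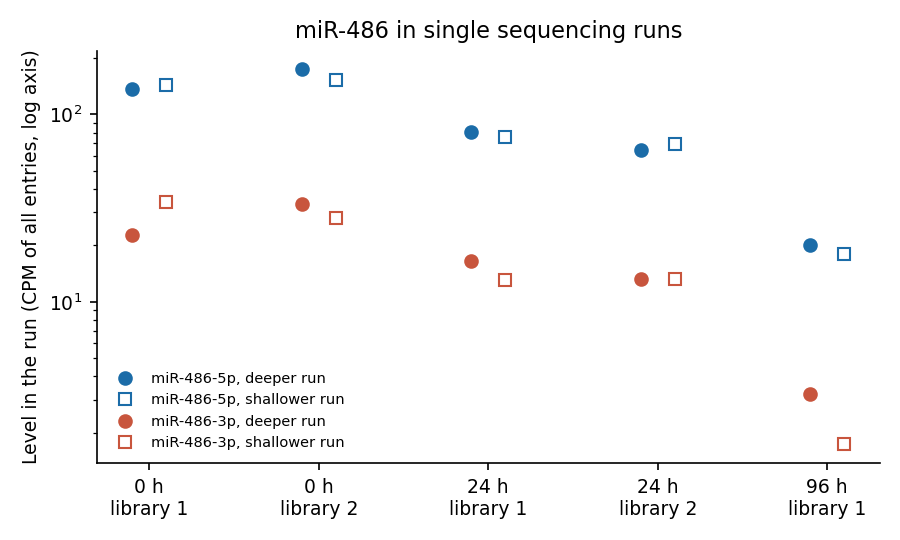
Level of miR-486-5p and miR-486-3p in single sequencing runs of 5 libraries, in CPM of all entries of the count table on a log axis, with filled circles for the deeper and open squares for the shallower run. The 2 runs after 96 h lie between 17.9 and 20.2 CPM for miR-486-5p and at 3.22 and 1.73 CPM for miR-486-3p, below every run after 24 h.

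Both strands come from the miR-486 hairpin, and their ratio within a library does not depend on how libraries are scaled. There were 5.35 and 5.30 reads of miR-486-5p for each read of miR-486-3p at 0 h, 5.14 and 5.07 after 24 h, and 6.94 and 9.14 after 96 h. The 4 early libraries lay between 5.07 and 5.35, and both 96 h libraries lay above them and differed most from each other. Other precursors had their libraries in the same order, as given below. The ratio was 5.32 ± 0.0360 at 0 h (SD, n = 2 libraries), 5.10 ± 0.0526 after 24 h, and 8.04 ± 1.55 after 96 h. The 3p strand thus made up 15.8% and 15.9% of the reads of both strands at 0 h, 16.3% and 16.5% after 24 h, and 12.6% and 9.86% after 96 h.

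The depth sets a limit on this shift. The counting interval of the 3p share was 12.6% to 19.5% and 13.0% to 19.2% in the 0 h libraries, and it was 8.11% to 19.0% and 5.96% to 15.9% in the 96 h libraries. Each interval after 96 h overlapped each interval at 0 h. With the reads of a time point summed, 150 of 948 reads at 0 h gave a 3p share of 15.8% (13.6% to 18.3%) and 32 of 285 reads after 96 h gave 11.2% (8.07% to 15.4%). These intervals overlapped as well. Overlap of intervals is no test of the difference, which was not tested.

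The difference of the mean log2 ratio, with 0.5 added to each count, was −0.07 between 0 and 24 h, 0.55 between 0 and 96 h, and 0.62 between 24 and 96 h. The SD between libraries of a time point was 0.16 on this scale, pooled over the time points. Without the first 96 h library the difference from 0 h was 0.74, and without the second it was 0.36. In the separated runs it was 0.14 between the deeper runs and 0.94 between the shallower ones, each with 1 library after 96 h. The shallower run after 96 h had 3 reads of miR-486-3p, and its ratio of 10.3 rests on them.

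The highest totals of the strands were on entries of different pairs, so the ratio was also taken within each pair of adjacent entries, a choice made after seeing the data. In the first pair the ratios were 4.85 and 4.98 at 0 h, 4.65 and 4.59 after 24 h, and 5.83 and 8.5 after 96 h. In the second pair they were 6.54 and 5.63 at 0 h, 6.70 and 6.13 after 24 h, and 8.93 and 11.6 after 96 h. Both 96 h libraries lay above the 4 early libraries in either pair. The log2 difference between 0 and 96 h was 0.49 in the first pair and 0.71 in the second. Reads of a mature miRNA can be listed under each of its precursors, so these pairs are not independent readings.

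**Figure D4:**
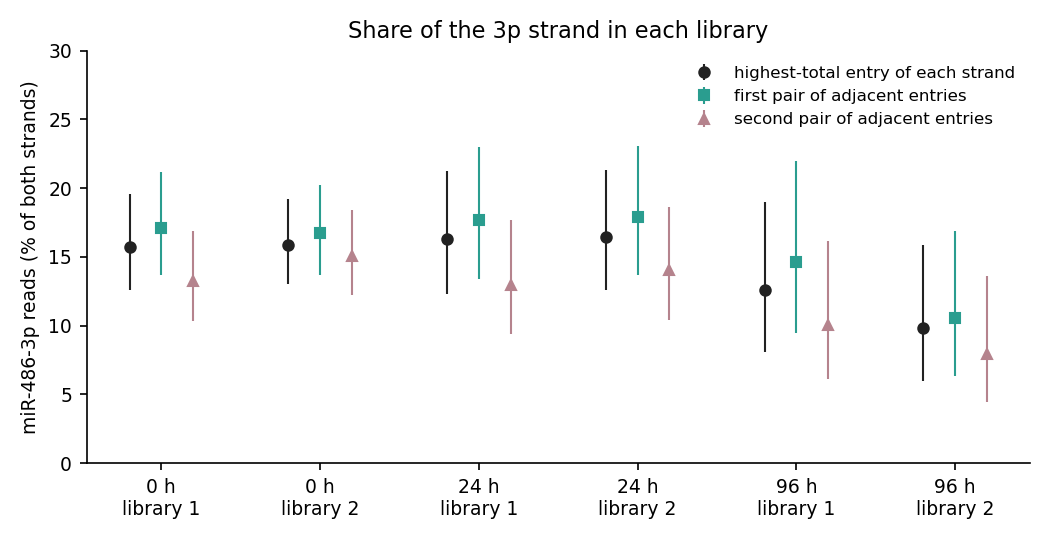
Share of miR-486-3p in the reads of both strands, in percent, for each library, with 95% Wilson intervals; the 3 symbols stand for the entry with the highest total of each strand and for the 2 pairs of adjacent entries. With the highest-total entries, the share is 15.8% to 16.5% in the 4 libraries of 0 and 24 h and 12.6% and 9.86% in those of 96 h, with overlapping intervals.

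The strand ratio of miR-486 was next set beside those of the other precursors. Both strands were tested for 108 precursors, and at 0 h miR-486 held place 42 of these by its preference for the 5p strand. From 0 to 96 h the log2 ratio of the 108 precursors changed by a median of −0.03, and the 10th and 90th percentiles were −0.78 and 0.88. miR-486 at 0.55 held place 24 from the highest, and 15 of the 108 precursors moved by more than 1 in either direction. The change of miR-486 therefore lay within the range of most precursors. In other precursors too, such as let-7a and miR-9, the ratio of both 96 h libraries lay above that of every earlier library. The share of the 108 precursors with libraries in this order is not given here. From 24 to 96 h it held place 18, and from 0 to 24 h place 59.

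Among the 82 precursors with a mean of at least 20 counts on each strand, the 5p to 3p ratio rose most in value from 0 to 96 h for miR-17 at 1.12, let-7i at 1.06, and miR-769 at 1.04 on the log2 scale. miR-17 belongs to a cluster of miRNAs that promotes proliferation. Its 3p strand had 126 summed counts at 0 h and 52 after 96 h, while its 5p strand had 2472 and 2453. These counts are not scaled, and the 96 h libraries were deeper than those of 0 h. With TMM, the log2-fold change after 96 h was −1.64 for miR-17-3p and −0.44 for miR-17-5p. The lowest differences of the ratio were those of miR-27b at −1.40, miR-374a at −1.18, and miR-25 at −1.18.

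**Figure D5:**
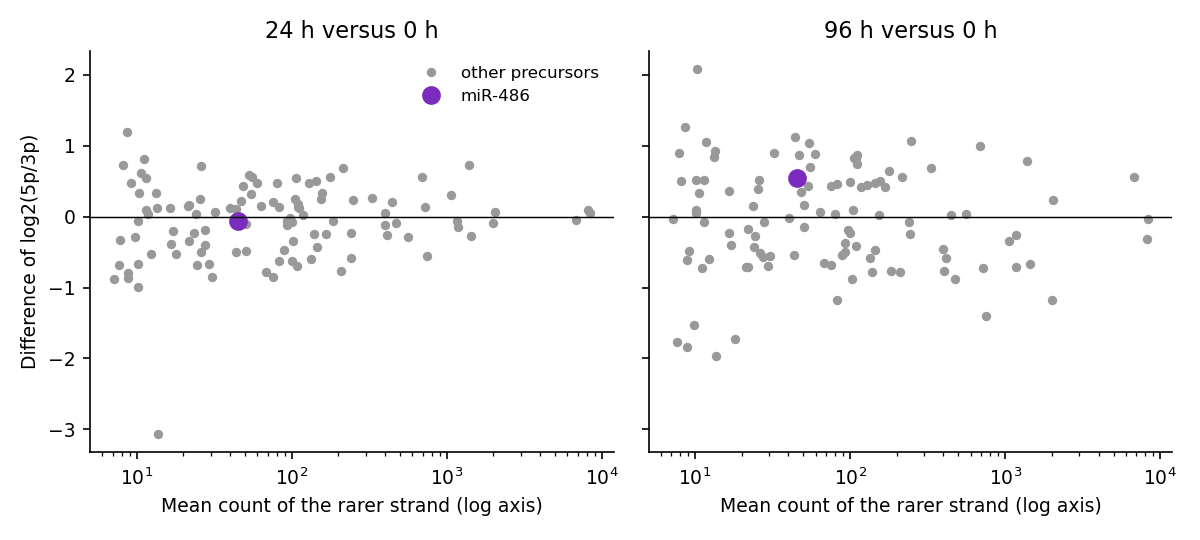
Difference of the log2 ratio of 5p to 3p reads between time points (vertical axis) for 108 precursors with both strands tested, against the mean count of the rarer strand (log axis), with 24 h on the left and 96 h on the right. miR-486 lies at −0.07 after 24 h and at 0.55 after 96 h, inside the spread of the other precursors in both panels.

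To place the time course, the tested miRNAs were ordered by how close their profiles over the 6 libraries came to that of each strand, as the root mean square difference of the log2 levels after centring. For miR-486-5p the closest was miR-3912-3p, with a difference of 0.195, followed by miR-138-5p at 0.229. miR-486-3p itself held place 3 at 0.250, ahead of miR-877-5p at 0.272 and miR-3687 at 0.275. The other strand of the same hairpin was among the closest but not the closest profile. Both strands were selected on their lower levels after 96 h, so their closeness follows in part from the selection, here and below.

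miR-3912-3p had 173 and 156 reads at 0 h, 74 and 89 after 24 h, and 46 and 58 after 96 h. On the log2 scale it changed by −2.07 between 0 and 96 h. miR-138-5p, which is known for its part in neurons, had 574 and 1119 reads at 0 h, 489 and 467 after 24 h, and 325 and 312 after 96 h. Its log2-fold change was −0.75 after 24 h and −1.78 after 96 h.

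For miR-486-3p the closest profile was that of miR-4521, with a difference of 0.161 and log2-fold changes of −0.61 after 24 h and −2.38 after 96 h. miR-4521 had 499 and 572 reads at 0 h, 275 and 420 after 24 h, and 159 and 116 after 96 h. miR-486-5p was second at 0.250, and miR-4455 and miR-302c-5p followed, both at 0.300. The latter was read 13 and 11 times at 0 h, 5 and 4 times after 24 h, and 0 and 1 times after 96 h, near the limit of detection. miR-3912-3p, the nearest to the 5p strand, held place 5 here at 0.383.

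miR-486 shares its expression in red cells with the miR-144 and miR-451 locus, whose miR-451a is the other abundant miRNA of red cells. Of the 6 listed miRNAs of that locus, 3 had any read and none reached the test. miR-451a had 1 and 3 reads at 0 h, 1 and 1 after 24 h, and 2 and 2 after 96 h, against 798 summed reads of miR-486-5p at 0 h. miR-144-3p had 3 reads in the second 0 h library, miR-144-5p had 1 in the second 24 h library, and both were at 0 in the other libraries. The summed level of the 3 red cell markers was 0.366 to 1.79 CPM at 0 h and 0.454 to 0.542 CPM after 96 h, so the red cell markers were at or near 0 at every time point.

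The markers of muscle and of white cells and platelets were also read at low levels. Of 9 listed muscle miRNAs, 8 were found by name and 5 of these had a read, with miR-133a-5p, miR-133b, and miR-208b-3p at 0. Their summed level was 4.48 to 4.76 CPM at 0 h, 4.84 to 5.20 CPM after 24 h, and 2.98 to 7.26 CPM after 96 h, and the only one tested, miR-499a-5p, was not called differentially expressed. Of the 6 miRNAs of white cells and platelets 2 had a read, with both strands of miR-223 and of miR-150 at 0. Their summed level was 2.98 to 5.13 CPM at 0 h, 1.84 to 2.23 CPM after 24 h, and 0.681 to 0.814 CPM after 96 h. miR-142-3p had 12 and 7 reads at 0 h, 4 and 2 after 24 h, and 2 and 1 after 96 h. miR-142-5p had 2 and 3 reads, 2 and 4 reads, and 1 and 2 reads. Their sum thus moved with miR-486, with miR-142-3p lower after 24 h and miR-142-5p at 0.814 CPM at 0 h and 0.984 CPM after 24 h, and their part in the result was not tested.

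A miRNA counted as differentially expressed where edgeR's quasi-likelihood F-test gave an adjusted p below 0.05 and the level moved by more than 1 on the log2 scale. Between 0 and 24 h, 1.22% of the 491 tested miRNAs were called higher and 2.24% lower. After 96 h against 0 h, 12.6% were called higher and 13.2% lower, and between 24 and 96 h 3.67% and 2.24%. Under total counts instead of TMM, the 62 higher and 65 lower calls after 96 h became 23 and 192. Those after 24 h went from 6 and 11 to 5 and 28, and those between 24 and 96 h from 18 and 11 to 14 and 58.

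miR-486-5p is one of the miRNAs that are abundant in plasma. Of 11 other plasma-abundant miRNAs, 9 were tested, 0 were called higher after 96 h, and 1 was called lower, against backgrounds of 12.6% and 13.2%. At an unadjusted p under 0.05 in edgeR, 1 was higher and 3 were lower after 96 h. The share of all tested miRNAs at that threshold is not given here. DESeq2 called 0 of the 9, beside 112 calls in either direction over all tested miRNAs. The median log2-fold change of the 9 was −0.13 after 24 h and −0.10 after 96 h, beside −0.00 and −0.10 over all tested miRNAs. The most abundant of them, miR-92a-3p and miR-22-3p, had log2-fold changes of 0.36 and 0.07 after 96 h, with adjusted p = 0.0629 and 0.863 in the quasi-likelihood test of edgeR, Benjamini-Hochberg, and with total counts their sign turned, to −0.37 and −0.69. miR-223-3p, the myeloid miRNA of the list, was at 0 in all 6 libraries.

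The plasma miRNA called lower by edgeR with TMM was miR-122-5p, the main miRNA of hepatocytes. It had 15 and 9 reads at 0 h, 1 and 6 after 24 h, and 4 and 1 after 96 h, so the time points did not overlap between 0 and 96 h. Its log2-fold change was −2.64 after 96 h (SE 0.84, adjusted p = 0.0290, the quasi-likelihood test of edgeR, Benjamini-Hochberg). The call was lost with DESeq2's Wald test (log2-fold change −2.67, adjusted p = 0.0639) and with limma on the authors' normalized values (−1.91, adjusted p = 0.135). It was also lost in edgeR without the first 0 h library, the first 24 h library, or either 96 h library, with adjusted p = 0.149, 0.0550, 0.0878, and 0.173 and log2-fold changes of −2.02, −2.61, −3.68, and −2.06. miR-122-3p was at 0. The liver marker was thus lower after 96 h than at 0 h, as miR-486 was, but its libraries of 24 and 96 h overlapped. Between 24 and 96 h its log2-fold change was −0.88 (SE 1.05). It had 24 summed reads against 798 of miR-486-5p at 0 h, and its part in the result was not tested.

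After 24 h and between 24 and 96 h, 0 plasma-abundant miRNAs were called by edgeR, DESeq2, or limma. At an unadjusted p under 0.05 in edgeR, 1 was lower after 24 h and 1 was higher between 24 and 96 h. No background is given here for that threshold. The background of edgeR calls was 1.22% higher and 2.24% lower after 24 h, and 3.67% and 2.24% between 24 and 96 h. The endothelial miR-126-3p, also in plasma, was well read, with 412 ± 43.6 CPM at 0 h (SD, n = 2 libraries), 456 ± 37.8 CPM after 24 h, and 453 ± 33.4 CPM after 96 h. Its log2-fold change after 96 h was 0.13 with TMM (adjusted p = 0.484 in edgeR's quasi-likelihood test) and −0.59 with total counts. Both endothelial markers, miR-126-3p and miR-126-5p, were tested, 0 were called by edgeR, DESeq2, or limma in any comparison, and 1 was higher after 24 h at an unadjusted p under 0.05 in edgeR. Their summed level was 404 to 460 CPM at 0 h and 455 to 495 CPM after 96 h with TMM, but 538 and 551 CPM against 365 and 360 CPM with total counts.

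The epithelial identity of the cells was checked with 9 epithelial miRNAs, of which 8 were found by name and 7 were tested. After 96 h, 1 of them was called higher and 0 lower, against backgrounds of 12.6% and 13.2%. It was miR-200b-3p of the miR-200 family, which represses ZEB transcription factors, with 123 and 144 reads at 0 h and 650 and 442 after 96 h. Its log2-fold change was 1.60 (SE 0.20, adjusted p = 0.000257 by the quasi-likelihood test of edgeR), and 0.87 with total counts, which is under the fold threshold. At an unadjusted p under 0.05 in edgeR, 3 were higher and 0 lower after 96 h. The share of all tested miRNAs at that threshold is not given here. DESeq2 called 1 higher and 0 lower, beside 112 calls in either direction over all tested miRNAs. The next most abundant, miR-200a-3p, had a log2-fold change of 0.81 (SE 0.20, adjusted p = 0.00947 in edgeR's quasi-likelihood test), while miR-200c-3p, miR-141-3p, and miR-375 had values of −0.03, −1.14, and −0.19 and were not called. miR-205-5p of squamous and basal epithelia had between 0 and 3 reads. The summed level of the list was 151 to 153 CPM at 0 h and 266 to 279 CPM after 96 h with TMM, and 176 and 208 CPM against 206 and 211 CPM with total counts.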

How the data were processed

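The authors assigned small RNA reads of A549 cells to mature miRNAs with miRDeep2 and deposited counts per mature miRNA and precursor, with both runs of a library summed. The authors also deposited a signal per entry that is the sum of the CPM of both runs. A repeated column of this signal was left out (1 column), so the second 96 h library has no normalized value here. The submitters' processing notes name hg19. The settings of the mapper are not given in the sources used here.

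Both strands of miR-486, the lists, and the tests were chosen with earlier results of these data known. Of the 2822 entries, which cover 2588 mature miRNAs, 170 mature miRNAs had several, and the entry with the highest total was used; 1417 had a read. The fit used edgeR 4.0.16 under R 4.3.3 (TMM, filterByExpr with a minimum count of 10, 1 quasi-likelihood model of the time point over all 6 libraries). A call needed a Benjamini-Hochberg adjusted p below 0.05 and a log2-fold change over 1 in size. Simulated data for 96 h against 0 h had 200 miRNAs shifted by 2 on the log2 scale, up or down at random. Over 5 draws with a mean of 472 tested, 96.9% of the changes were recovered and 1.35% of the calls were false. Changes mostly in the same direction were not simulated, so these values do not cover the choice of scaling. Strand ratios are counts of 5p over 3p within a library. Reads of single runs were recovered from the normalized values by their whole-read steps, in Python 3.11.15.

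Named miRNAs were the 5 nearest profiles of each strand, the 3 largest rises and falls of the strand ratio among precursors with a mean of at least 20 counts on each strand, and, of the plasma and locus lists, those called and the 2 most abundant, or all with a read where none was tested. Marker miRNAs named beyond this were chosen after their values were seen. Alternatives were other scalings, filters, and fits, DESeq2 1.42.0, limma 3.58.1 on log2(normalized value + 1), single runs, and leaving out each library. The qPCR experiments were not analysed here, and 1 list of miRNAs is not reported here.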

Additional observations from a re-analysis of the deposited data

How the results depend on the processing

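Both strands of miR-486 were lower at each later time point in every alternative run. Under total counts, the log2-fold changes were −1.06, −2.78, and −1.72 for miR-486-5p (24 h against 0 h, 96 h against 0 h, and 96 h against 24 h) and −1.01, −3.36, and −2.35 for miR-486-3p. With limma on the normalized values, which are also scaled by total counts and lack the second 96 h library, they were −1.05, −2.96, and −1.90 for miR-486-5p and −1.06, −3.34, and −2.28 for miR-486-3p. With a mean of at least 10 CPM, miR-486-3p changed by −0.80 at 24 h and −2.77 at 96 h, and with counts summed over entries by −2.73 at 96 h. Leaving out 1 library at a time gave −2.16 to −1.89 and −1.35 to −1.08 for miR-486-5p at 96 h against 0 h and against 24 h, and −2.66 to −2.54 and −1.93 to −1.79 for miR-486-3p. The strand difference at 24 h was 0.20 between the shallower runs. At 96 h it was 0.14 against 0 h and 0.34 against 24 h between the deeper runs, and 0.94 against 0 h between the shallower ones. It ranged from 0.36 to 0.74 against 0 h and from 0.42 to 0.81 against 24 h when 1 library was left out, with the lower value without 96 h replicate 2 and the higher without 96 h replicate 1.

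The number of miRNAs called was 17 at 24 h, 127 at 96 h, and 29 between 24 and 96 h, and under total counts it was 33, 215, and 72. Between 24 and 96 h it was 46 without an expression filter, 17 with a mean of at least 10 CPM, 44 with only the time points compared, and 10 with limma. Leaving out 1 library gave 4 to 36 calls at 24 h, with 36 without 0 h replicate 1 and as few as 5 and 4 without 24 h replicate 1 or 24 h replicate 2. Between 24 and 96 h it gave 9 to 46 calls, with 46 and 44 without 0 h replicate 1 or 2, 9 without 24 h replicate 1, and 11 and 16 without 96 h replicate 1 or 2. The plasma and locus lists held 1 call, 3 under total counts, 3 with limma, and 0 with a mean of at least 10 CPM or with DESeq2's Wald test. Leaving out 1 library gave 0 to 1 calls there, 0 of them without 0 h replicate 1, without 24 h replicate 1, or without either 96 h library. The cause of these changes was not tested. Where leaving out a library left 1 library at a time point, it was assumed to vary like the others.

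Libraries with the same replicate number deviated together in 1 of 3 pairs of time points, with correlations of −0.30, 0.31, and −0.18 for 0 and 24 h, 0 and 96 h, and 24 and 96 h. With the replicate number as a block, 20, 124, and 41 miRNAs were called, and the changes at 96 h were −2.06 for miR-486-5p and −2.63 for miR-486-3p. The strand differences are the same with the replicate block by construction. The strand ratio rests on 32 summed reads of miR-486-3p at 96 h.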
